A study of Mus musculus with 11 samples.

Results

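Transcript levels in the intestine of mice on a high-fat diet were compared with those of mice on a normal diet, in 4 libraries labelled HFD against 3 labelled ND. The comparison covers every gene whose mean over these 7 libraries was at least 1 FPKM (fragments scaled to transcript length and library size), which 10272 of 24250 listed genes reached. At that limit, Alkbh2 lay just inside with a mean of 1.00117 FPKM and the predicted gene Gm6139 just outside with 0.999985. The sample labels give the tissue as intestine and the series text says small intestine. ND and HFD are read here as normal and high-fat diet, and no other allele, agent or treatment is stated for either group. Strain, sex, age, the make of the diets, the time on them, the stretch of intestine taken and any pooling of animals were not stated in the labels used here. The series text also speaks of obese mice. A further group of 4 libraries, from mice given the powder that the series title names, entered the fit only to help estimate the spread between libraries. Values by library are listed in the order of the replicate numbers.

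The small intestine absorbs fat, sugar, amino acids, vitamins and bile acids through a single layer of epithelium, most of whose cells are enterocytes with a brush border facing the gut contents. Genes of that layer are used unevenly along its length: folate, iron and retinol uptake are known for the duodenum and jejunum, and the recovery of bile acids and vitamin B12 for the ileum. Dietary fat is repacked in enterocytes into chylomicrons, lipoproteins built on apolipoproteins. Cells short of cholesterol switch on its synthesis through the sterol-regulated factor SREBP2.

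The libraries held 3.18e+07 to 3.72e+07 fragments, as recovered from steps in the values of single-exon genes, so that 1 FPKM on a transcript of 1 kb stood for 31.8 to 37.2 fragments. A pair of libraries lay close to sums of others. ND 2 was close to a weighted sum of ND 1 (weight 0.570) and ND 3 (weight 0.446), with a median absolute difference of 4.34% over 7756 genes, and HFD 3 to one of HFD 2 (0.350) and HFD 4 (0.630), with 4.24% over 7398 genes. The other 5 libraries differed from the best such sum of their groups by medians of 9.09% to 23.9%. Results are therefore also given without ND 2 and HFD 3 together, and since nothing in the labels says which libraries came from separate animals, p-values measure only the spread between these libraries, which may be technical. Mitochondrially encoded genes took 40.4% of the summed FPKM of HFD 1, 18.1% to 26.3% of the other HFD libraries and 16.3% to 22.2% of ND. The defining enterocyte markers Vil1 and Fabp2 were abundant in all 7 libraries, at 738 FPKM or more and 15260.3 FPKM or more.

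By limma on log2(FPKM + 1) with Benjamini-Hochberg adjustment, 568 genes rose in HFD (5.53% of those tested) and 1586 fell (15.4%), 2154 in all (21%). All 4 HFD libraries lay above all 3 ND libraries for 966 genes (9.4%) and below them for 3471 (33.8%). Among the calls the groups overlapped for 41, and 259 of the rises and 373 of the falls were over 2-fold. Well-expressed genes were called more often, from 12.6% of genes averaging 1 to 3 FPKM to 31.8% of those at 30 to 100 FPKM and 29.6% at 100 FPKM or more. The balance of rises and falls depended on the scale of the values. The middle gene of the whole table had a log2 change of −0.21. Median-ratio scaling of the libraries moved it to −0.02 and gave 1131 rises and 986 falls. Quantile normalization gave 1150 and 1222, and rescaling to equal summed FPKM gave 384 and 1552, or 634 and 1286 when mitochondrially encoded genes were left out of the sums. Under all 4 of these scalings 380 of the rises and 908 of the falls were called.

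The counts leaned on single libraries. Without ND 1 there were 271 rises and 633 falls, and without ND 2 there were 294 and 577. With ND 2 and HFD 3 both left out, 148 genes rose and 263 fell, all of them among the calls made with every library. No call took the opposite direction when a single library was left out, and 255 of the rises and 528 of the falls were called without each library in turn.

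**Figure D1:**
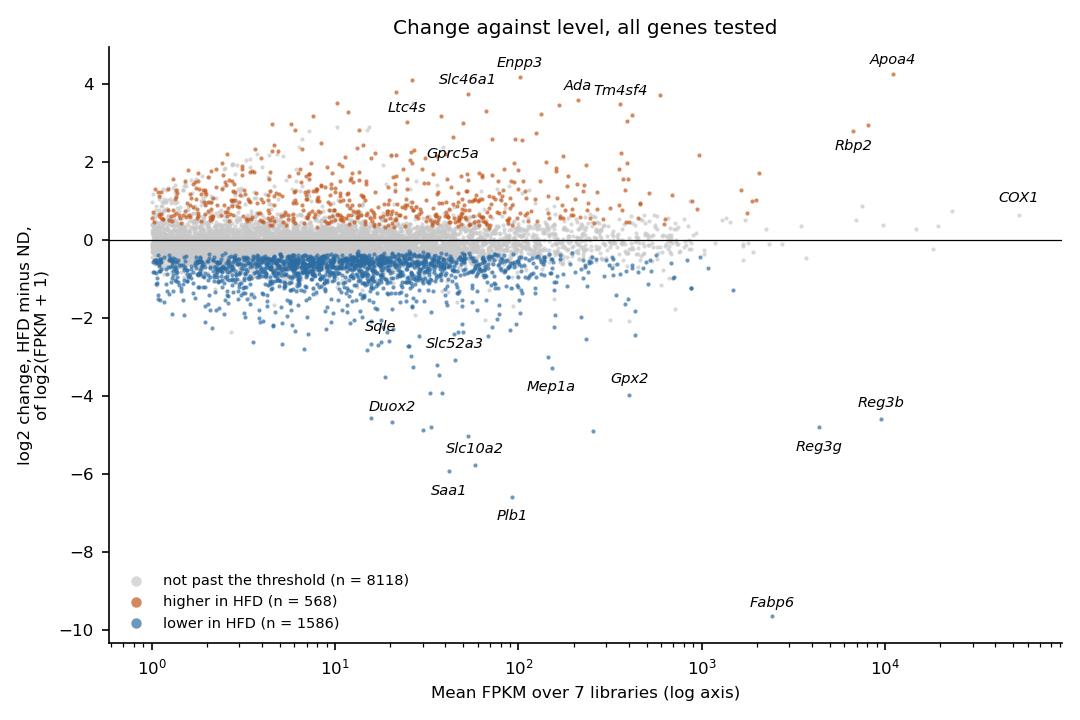
Mean FPKM over the 7 libraries (log axis) against the log2 change in HFD of log2(FPKM + 1), 1 point per tested gene, coloured by limma call. The 568 genes higher in HFD reach a log2 change of 4.27 (Apoa4) and the 1586 lower ones reach −9.66 (Fabp6), while the mitochondrially encoded COX1, the most abundant transcript, was not called.

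The genes that rose with the smallest p-values were a receptor, enzymes and membrane proteins of differing roles. Gprc5a, an orphan receptor induced by retinoic acid (chromosome 6, 135065651 to 135084709, plus strand), stood at 8.85, 9.84 and 11.5 FPKM in ND and at 65.3, 54.7, 70.2 and 85.8 FPKM in HFD. Its lowest HFD library was over 4 times its highest ND library, and its mean rose from 10.1 ± 1.32 (SD, n = 3) to 69.0 ± 12.9 FPKM (SD, n = 4), or 6.86-fold (log2 change 2.65, SE 0.15, limma adjusted p = 9.81e-06). Ltc4s, the synthase of the lipid mediator leukotriene C4 (chromosome 11, 50236461 to 50238616, minus strand), stood at 4.002, 3.77 and 3.91 FPKM in ND and at 50.8, 28.4, 39.6 and 42.5 in HFD (log2 change 3.05, SE 0.23, limma adjusted p = 7.80e-05). The ND libraries of Ltc4s lay close together, and HFD 2 was its lowest HFD library. Tm4sf4, a small membrane protein of the tetraspanin-like L6 family (chromosome 3, 57425314 to 57441677, plus strand), stood at 50.6, 54.4 and 46.9 FPKM in ND against 675, 409, 589.9 and 684 in HFD (log2 change 3.49, SE 0.26, limma adjusted p = 7.80e-05).

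HFD 2 was likewise the lowest HFD library for the tight-junction claudin Cldn4, at 14.5, 16.8 and 21.1 FPKM in ND and 132, 78.0, 111 and 129 in HFD (log2 change 2.60, SE 0.21, limma adjusted p = 0.000123). The beta-tubulin gene Tubb2a stood at 12.4, 11.02 and 9.43 FPKM against 76.6, 38.1, 48.3 and 54.6, with HFD 1 highest and no overlap. Kdelr3, a receptor that returns escaped proteins to the endoplasmic reticulum, stood at 1.28, 1.39 and 1.88 FPKM in ND and 17.5, 9.13, 12.8 and 14.7 in HFD. Bbox1, the last enzyme of carnitine synthesis, was close to the detection limit in ND 1 and rose from 0.109, 0.524 and 1.11 to 18.5, 9.11, 19.5 and 22.5 FPKM (log2 change 3.52, SE 0.39, limma adjusted p = 0.000594). Rbp2, the intestinal carrier of retinol and among the 10 most abundant transcripts in HFD, stood at 913, 1502 and 2389 FPKM in ND and 10641, 8763, 10143 and 12556 in HFD (log2 change 2.81, SE 0.33, limma adjusted p = 0.000692). Gclm, the modifier subunit of the enzyme that starts glutathione synthesis, varied little within either group, at 40.3, 46.3 and 51.5 FPKM in ND and 97.8, 94.0, 94.2 and 100.4 in HFD.

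The other leading rises were those of Gata6os (1.72), N4bp2l1 (1.75), Dipk2a (2.11), the pro-apoptotic p53 target Cdip1 (1.36), Ifrd1 (1.155) and the phosphoglucomutase Pgm2 (1.33), as log2 changes. Gata6os is transcribed opposite the transcription factor gene Gata6, and since the use of strand in counting is not stated its reads cannot be told apart from those of Gata6, which also rose (0.83). All 15 leading rises were called without each single library and without ND 2 and HFD 3 together.

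Among the falls with the smallest p-values were genes of the brush border and of vitamin uptake. Ceacam20, an adhesion molecule of the brush border (chromosome 7, 19965412 to 19991104, plus strand), stood at 66.3, 76.4 and 74.6 FPKM in ND and at 28.3, 30.7, 28.5 and 27.6 in HFD. Its mean fell from 72.4 ± 5.36 (SD, n = 3) to 28.8 ± 1.35 FPKM (SD, n = 4) (log2 change −1.30, SE 0.11, limma adjusted p = 0.000132). The HFD libraries of Ceacam20 lay close together, far below the lowest ND library. Slc44a4, a transporter of choline and thiamine pyrophosphate, stood at 98.9, 96.7 and 67.5 FPKM in ND and 12.4, 19.2, 17.6 and 16.2 in HFD (log2 change −2.35, SE 0.21, limma adjusted p = 0.000203). Stom, the membrane protein stomatin (chromosome 2, 35313986 to 35336976, minus strand), stood at 174, 167 and 154 FPKM against 34.2, 42.0, 30.8 and 25.1 (log2 change −2.31, SE 0.21, limma adjusted p = 0.000203), with HFD 4 lowest.

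Ext1, which builds heparan sulfate chains, stood at 24.7, 24.2 and 18.1 FPKM in ND and at 2.83, 4.83, 4.85 and 5.05 in HFD, ND 3 being the lowest ND library and HFD 1 the lowest of all. Slc52a3, the riboflavin transporter of the gut, had 83.7, 94.5 and 94.8 FPKM in ND and 6.71, 13.8, 11.1 and 9.18 in HFD (log2 change −3.08, SE 0.30, limma adjusted p = 0.000307). Abcg2, an efflux pump for xenobiotics and urate, had 94.8, 91.0 and 60.9 FPKM in ND and 19.8, 22.5, 27.0 and 29.3 in HFD. Aspa, which splits N-acetylaspartate, stood at 181, 172 and 170.1 FPKM in ND and 23.7, 47.9, 45.4 and 42.3 in HFD, with HFD 1 below the other 3 HFD libraries. Bspry, a gene expressed in epithelia, stood at 28.6, 28.8 and 26.9 FPKM in ND and 12.3, 12.4, 12.7 and 12.9 in HFD, with little spread in either group. The remaining leading falls, as log2 changes, were those of the cytochrome Cyp2c55 (−3.47), the matrix protein Tgfbi (−1.67), Pm20d1, which makes N-acyl amino acids (−1.43), the growth factor Pdgfc (−1.88) and the cyclin-dependent kinase inhibitor Cdkn2b (−1.23). All those named here were called without each single library and without ND 2 and HFD 3 together.

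**Figure D2:**
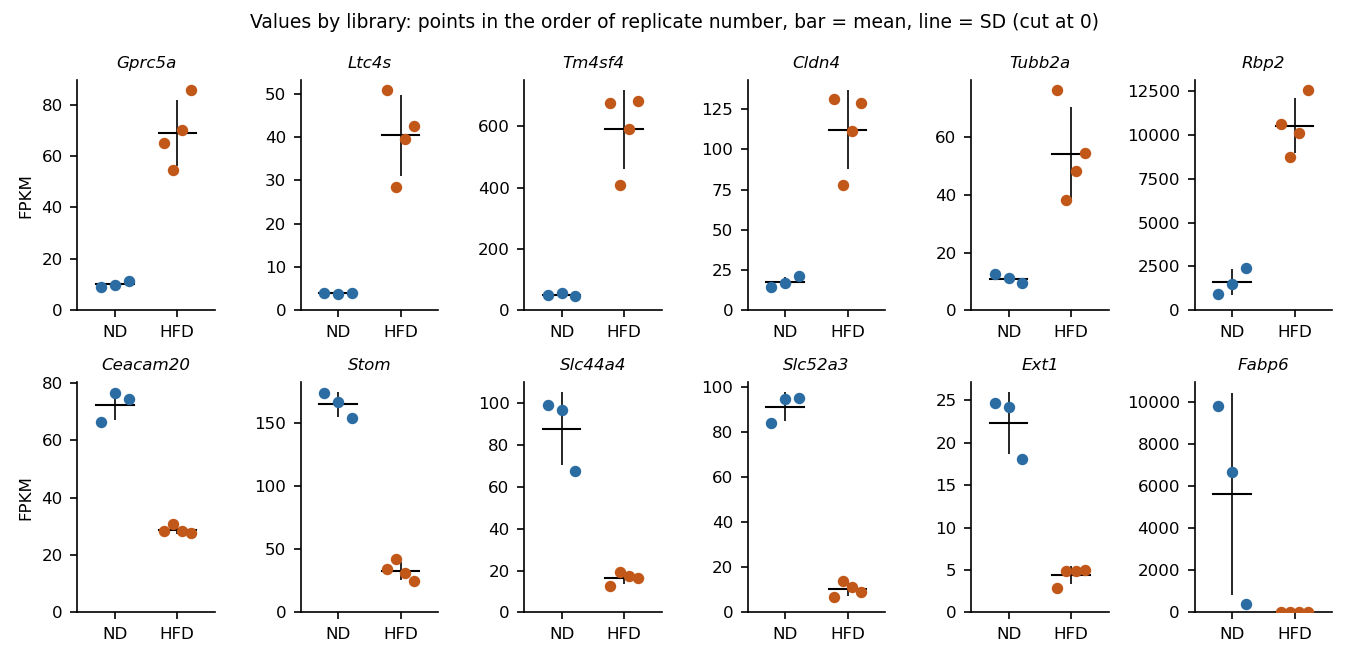
FPKM by library for 12 genes, with ND in blue and HFD in orange, points in the order of the replicate numbers, a horizontal bar at the mean and a vertical line for the SD. For the first 11 the groups are far apart, as for Stom at 154 to 174 FPKM in ND against 25.1 to 42.0 in HFD, while Fabp6 runs from 397 to 9821 FPKM within ND and is below 5 FPKM in HFD.

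Genes that mark position along the small intestine separated the groups, in lists that were chosen with earlier results of these data known. Of 16 tested distal markers 13 fell and 0 rose (median −1.79, against −0.21 over all genes), and of 9 tested proximal markers 8 rose and 1 fell (median 2.81). In the distal list Cubn, Fgf15 and Gcg, given below, did not pass. Without ND 2 and HFD 3 together 8 distal falls and 5 proximal rises were called. Plb1, a brush-border phospholipase of the distal list, stood at 163, 208 and 266 FPKM in ND and at 0.0739, 5.54, 2.04 and 0.0583 in HFD (log2 change −6.58, SE 0.89, limma adjusted p = 0.00101), with HFD 1 and HFD 4 near 0. Mep1a, a subunit of the protease meprin, stood at 406, 341 and 191 FPKM in ND and 17.1, 40.6, 34.3 and 32.8 in HFD (log2 change −3.28, SE 0.44, limma adjusted p = 0.000932). Within ND, Plb1 was highest in ND 3, whereas Mep1a was lowest there. Among proximal markers Slc46a1, the proton-coupled folate transporter, stood at 2.69, 5.39 and 7.96 FPKM in ND and 87.7, 32.4, 99.5 and 137 in HFD (log2 change 3.75, SE 0.46, limma adjusted p = 0.000766). The transcription factor Onecut2 stood at 0.00612, 0.0432 and 0.0793 FPKM in ND and 2.64, 0.814, 2.39 and 3.13 in HFD (log2 change 1.57, SE 0.26, limma adjusted p = 0.00224).

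The proximal list had 1 exception, the iron exporter Slc40a1, which fell from 10.1, 7.08 and 2.42 to 0.721, 0.697, 0.680 and 0.839 FPKM (log2 change −1.96, SE 0.34, limma adjusted p = 0.00330), a call that ended without ND 2 and HFD 3 together. The mean log2(FPKM + 1) of the distal list minus that of the proximal list was 3.14, 1.87 and 0.32 in ND and −3.49, −2.08, −3.08 and −3.70 in HFD. ND 3 was thus the ND library nearest to HFD and HFD 2 the HFD library nearest to ND, and the groups did not overlap. When this difference entered the limma fit as a covariate, 0 genes passed the adjusted threshold (748 at an unadjusted p under 0.05), and the covariate itself separates the groups. An effect of diet and a difference in the stretch of intestine taken cannot be told apart here, for these and for all other genes below. In bulk tissue, fewer cells of a type and less RNA per cell cannot be told apart.

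Transcription factors that pattern the gut also moved: 9 of 19 tested fell and 3 rose (median −0.58), with falls numbering 5 without ND 1, 5 without ND 2 and 2 without ND 2 and HFD 3 together. Gata6, a factor that is not in the proximal list, rose from 23.9, 22.7 and 23.5 to 46.7, 36.6, 44.0 and 42.5 FPKM (log2 change 0.83, SE 0.12, limma adjusted p = 0.00162), with no overlap between the groups. Osr2, a factor of the distal list, fell from 53.0, 46.4 and 39.6 to 16.3, 24.3, 24.7 and 21.4 FPKM (log2 change −1.07, SE 0.20, limma adjusted p = 0.00425). The factor Maf fell from 228, 153 and 108 to 44.0, 69.0, 57.6 and 44.1 FPKM. The Wnt effector Tcf7l2 fell from 6.25, 6.44 and 6.47 to 3.17, 4.56, 3.71 and 3.40 FPKM, a call ending without ND 2 and HFD 3 together. The intestinal master factor Cdx2 (−0.67) did not pass, and its groups overlapped.

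**Figure D3:**
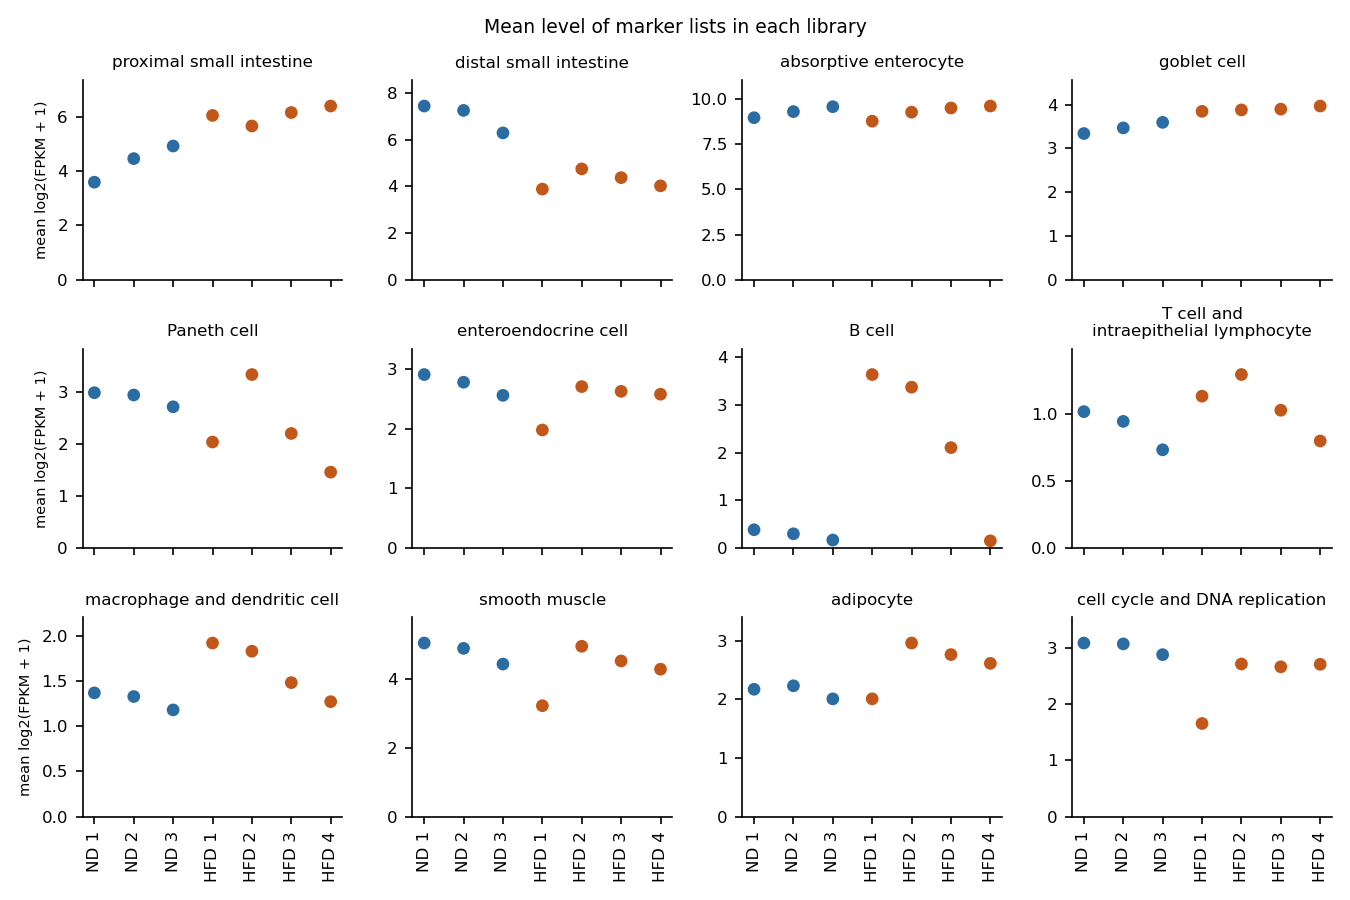
Mean log2(FPKM + 1) of the genes of 12 marker lists in each library, with ND in blue and HFD in orange, each axis starting at 0. The proximal and distal lists separate the groups, B cell markers are high in HFD 1 to HFD 3 and near 0 in HFD 4, and HFD 1 has the lowest cell cycle, smooth muscle and enteroendocrine levels.

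The importer and the cytosolic carrier of bile acids in the ileum were near 0 in HFD. Fabp6, the ileal bile acid binding protein (chromosome 11, 43596049 to 43601540, minus strand), stood at 9821, 6702 and 397 FPKM in ND and at 4.31, 3.54, 2.32 and 1.26 in HFD (log2 change −9.66, SE 1.32, limma adjusted p = 0.00103). ND 3 held far less Fabp6 than the other 2 ND libraries and still far more than any HFD library. Slc10a2, which imports bile acids from the gut, had the same order within ND, with 256, 141 and 7.70 FPKM in ND and 0.146, 0.551, 0.200 and 0.158 in HFD. The exporter subunits Slc51a and Slc51b were less reduced. Slc51a stood at 541, 488 and 306 FPKM against 44.3, 79.6, 87.6 and 96.8, and Slc51b at 779, 661 and 439.5 against 189, 235, 178 and 177. Nr1h4, the bile acid receptor FXR, fell from 43.2, 40.0 and 22.7 to 6.88, 10.7, 9.73 and 10.6 FPKM (log2 change −1.76, SE 0.23, limma adjusted p = 0.000892).

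Of 9 tested bile acid genes 5 fell and 1 rose (median −1.76). The 5 that fell are also in the distal list above, so they are not a separate finding. The rise was that of Nr0b2, the repressor SHP (0.266, 0.192 and 0.0210 FPKM in ND and 6.81, 0.970, 3.87 and 4.84 in HFD). Without ND 2 and HFD 3 together 4 of the falls were called, and the calls of Slc51b and Nr0b2 ended. Fgf15, the ileal hormone that FXR induces, stood at 10.2, 7.75 and 0.640 FPKM in ND and 0.0347, 0.131, 0.0936 and 0 in HFD and did not pass (log2 change −2.35, SE 0.89, limma adjusted p = 0.0811), ND 3 being low. The export pumps Abcc2 (0.22) and Abcc3 (−0.54) did not pass either.

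Fat uptake and the making of chylomicrons held more rises than falls, 11 against 1 of 32 tested (median 0.40), with rises numbering 5 without ND 1, 6 without ND 2 and 3 without ND 2 and HFD 3 together. The falls numbered 2 without HFD 4 and 0 without ND 2 and HFD 3 together. Apoa4, an apolipoprotein of chylomicrons, stood at 245, 1208 and 2837 FPKM in ND and at 20758, 15115, 17618 and 19813 in HFD (log2 change 4.27, SE 0.62, limma adjusted p = 0.00138). ND 1 was by far the lowest of the ND libraries of Apoa4, which were widely spread, whereas the HFD libraries lay close together. Fabp1, a fatty acid carrier, had the same order within ND, at 476, 1940.2 and 4390.3 FPKM, and 11584, 11349, 12219 and 14642 FPKM in HFD (log2 change 2.96, SE 0.60, limma adjusted p = 0.00684).

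Acsl3, which activates fatty acids on lipid droplets and the endoplasmic reticulum, stood at 5.02, 5.70 and 5.07 FPKM in ND and 17.2, 14.3, 17.3 and 20.2 in HFD (log2 change 1.54, SE 0.24, limma adjusted p = 0.00196). Slc27a2, a very long-chain acyl-CoA synthetase, stood at 15.4, 27.9 and 43.2 FPKM in ND and 65.8, 80.7, 93.2 and 118 in HFD. The acyltransferase Agpat3 rose from 2.61, 4.16 and 6.396 to 11.2, 10.2, 14.6 and 16.9 FPKM. By contrast Fabp2, the most abundant of these carriers, stood at 16208, 19471 and 23695 FPKM in ND and 15260.3, 20075, 16418 and 15989.6 in HFD and did not pass (log2 change −0.22, SE 0.24, limma adjusted p = 0.517). The fatty acid transporters Slc27a1 (0.11) and Slc27a4 (−0.25) did not pass either. Among these, the calls of Fabp1 and Agpat3 ended without ND 2 and HFD 3 together.

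Genes that burn fatty acids or answer to the lipid receptor PPAR-alpha gave 12 rises and 3 falls of 37 tested (median 0.29), the rises numbering 5 without ND 1, 7 without ND 2, 7 without HFD 3 and 2 without ND 2 and HFD 3 together. The falls numbered 1 without ND 2 and HFD 3 together. Pdk4, a kinase that turns cells from glucose to fat oxidation, stood at 2.64, 3.52 and 6.06 FPKM against 10.8, 8.39, 11.6 and 12.1. The mitochondrial thioesterase Acot2 stood at 2.15, 1.98 and 2.92 against 8.29, 4.403, 6.38 and 6.49. Vnn1, a pantetheinase of the brush border, went the other way, from 253, 274 and 312 to 61.8, 99.7, 57.0 and 34.2 FPKM (log2 change −2.22, SE 0.34, limma adjusted p = 0.00182). Cpt1a, the gate of mitochondrial fat oxidation, stood at 28.9, 30.8 and 31.3 FPKM in ND and 13.5, 18.6, 27.6 and 32.6 in HFD and did not pass. Cpt2 (0.49) and the carnitine carrier Slc25a20 (−0.21) did not pass either. The call of Pdk4 ended without ND 2 and HFD 3 together.

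Fatty acid synthesis and desaturation split, with 6 of 18 tested genes lower and 1 higher (median −0.21, against −0.21 over all genes). The falls numbered 2 without ND 1, 3 without ND 2 and 1 without ND 2 and HFD 3 together, and the rises 0 without ND 1 or ND 2 and 0 without ND 2 and HFD 3 together. Scd2, a stearoyl-CoA desaturase, fell from 31.3, 30.1 and 28.7 to 2.60, 6.33, 3.48 and 2.25 FPKM (log2 change −2.81, SE 0.35, limma adjusted p = 0.000789), with HFD 2 the highest HFD library. The other desaturase, Scd1, stood at 12.7, 10.5 and 7.54 FPKM in ND and 15.8, 15.8, 16.7 and 17.5 in HFD and did not pass (log2 change 0.66, SE 0.62, limma adjusted p = 0.438), although its groups did not overlap. The elongases Elovl1 (−1.08), Elovl5 (−1.31) and Elovl7 (−0.76) fell, whereas Elovl6 (−0.04) and the fatty acid synthase Fasn (−0.61) did not pass. Srebf1, the regulator of fatty acid synthesis, rose from 6.43, 8.36 and 9.46 to 13.3, 19.8, 20.4 and 22.1 FPKM (log2 change 1.12, SE 0.28, limma adjusted p = 0.0183). The calls of Elovl7 and Srebf1 ended without ND 1 or without ND 2, that of Elovl5 without ND 1, and all but that of Scd2 without ND 2 and HFD 3 together.

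Cholesterol synthesis held the largest share of falls of all lists: 19 of 20 tested enzymes fell and 0 rose (median −1.17, against −0.21 over all genes), with falls numbering 12 without ND 1 and 7 without ND 2 and HFD 3 together. Idi1, which isomerises isopentenyl diphosphate, had 20.7, 14.9 and 7.30 FPKM in ND and 1.06, 1.92, 2.07 and 1.71 in HFD. Fdps, the farnesyl diphosphate synthase, had 55.3, 49.0 and 29.3 FPKM in ND and 10.2, 16.0, 12.98 and 11.6 in HFD. Squalene epoxidase, Sqle, stood at 48.1, 38.6 and 19.2 FPKM in ND and 2.97, 7.18, 4.64 and 4.06 in HFD (log2 change −2.62, SE 0.34, limma adjusted p = 0.000898). The sterol reductase Tm7sf2 stood at 21.0, 18.9 and 11.96 FPKM and 3.80, 4.95, 6.49 and 5.77. In all 4 of these genes ND 3 was the lowest ND library and HFD 1 the lowest HFD library, and the groups did not overlap.

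Ebp, a sterol isomerase, was the only tested member that did not pass (log2 change −0.27, SE 0.16, limma adjusted p = 0.223), its groups overlapping. Under median-ratio scaling and under quantile normalization 18 members fell. Of the 20 genes 15 had a promoter in the RefSeq table (build GRCm38.p6). A CCAAT box, read as CCAAT on either strand of the 250 bases before the start, lay in 14 of them (93.3%), against 40.7% of the 8206 tested genes with a promoter. A strict sterol regulatory element, TCACNCCAC on either strand, lay in 1 (6.67%), against 1.26%. It also lay in 2 of 29 promoters of the fatty acid oxidation list (6.9%), and in 0 of 12 of the cholesterol uptake, sensing and efflux list. The cholesterol synthesis promoter that held it was the one of Hmgcs1, whose enzyme makes HMG-CoA. Its transcript fell from 115, 76.9 and 48.0 to 20.9, 38.4, 28.3 and 17.7 FPKM (log2 change −1.54, SE 0.34, limma adjusted p = 0.00932), a call that ended without ND 1. The stretch around the match, chr13:119690184-119690252 on the plus strand, lies 167 to 99 bases before the start. It is shown, with the match in capitals, because this is the binding motif of the SREBP factors that switch these genes on.
Hmgcs1: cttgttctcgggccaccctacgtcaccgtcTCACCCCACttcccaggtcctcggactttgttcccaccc
A match is a description of the letters and shows no binding, and the lack of one says only that these letters are not in the window.

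Cholesterol uptake, sensing and efflux also held more falls than rises, 7 against 1 of 18 tested (median −0.34), the rise being that of Insig1 (0.82), an anchor of the sterol sensor, and the falls numbering 4 without ND 1 and 2 without ND 2 and HFD 3 together. The falls included Insig2, another anchor of that sensor, at 9.40, 8.90 and 8.32 FPKM in ND and 4.66, 4.41, 4.28 and 4.41 in HFD (log2 change −0.86, SE 0.11, limma adjusted p = 0.000901). Npc1l1, the brush-border importer of cholesterol, fell from 152, 185 and 225 to 76.5, 112, 107 and 104 FPKM (log2 change −0.90, SE 0.17, limma adjusted p = 0.00472). The sterol carrier Stard4 fell from 71.0, 61.2 and 50.8 to 29.1, 43.0, 34.96 and 32.1 FPKM. Mylip, a ligase that marks the LDL receptor for degradation, fell from 6.65, 6.08 and 3.55 to 1.35, 2.57, 1.55 and 0.663. The efflux pair Abcg5 (−0.13) and Abcg8 (−0.10) and the sensor Scap (−0.41) did not pass. The call of Mylip ended without ND 1 and that of Insig1 without ND 2, ND 3, HFD 1, HFD 3 or HFD 4. Without HFD 2 the rises of this list numbered 2, and under median-ratio scaling 3. The calls of Npc1l1 and Stard4 ended without ND 2 and HFD 3 together.

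**Figure D4:**
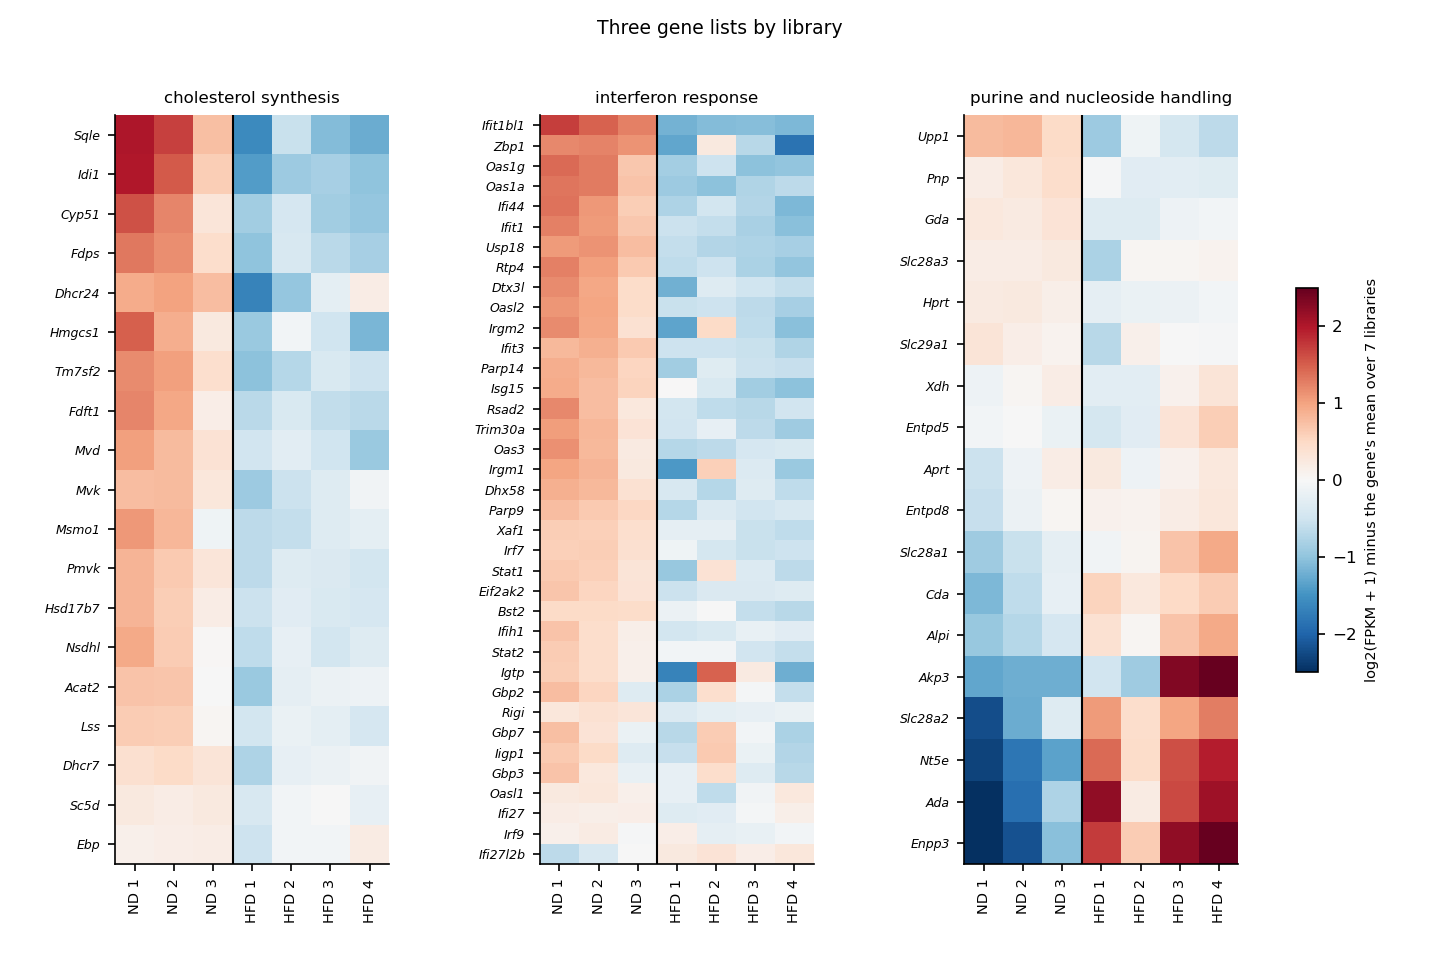
Log2(FPKM + 1) minus the mean of the gene over the 7 libraries for tested members of 3 lists (1 cholesterol synthesis gene is not shown), with 1 row per gene and 1 column per library (red higher, blue lower, colours capped at 2.5). Cholesterol synthesis (19 of 20 lower in HFD) and most interferon response genes (27 of 37 lower) are redder in the 3 ND libraries, and purine and nucleoside handling holds 7 of 18 genes higher in HFD.

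Interferon response genes fell in 27 of 37 tested cases and rose in 0 (median −1.21), with falls numbering 15 without ND 1, 16 without ND 2 and 8 without ND 2 and HFD 3 together, and 16 under median-ratio scaling. Without ND 3 the rises numbered 1. These genes are switched on by interferon through STAT and IRF factors that bind the interferon-stimulated response element. Ifi44, an interferon-induced protein of microtubule aggregates, stood at 5.78, 4.62 and 3.02 FPKM in ND and 0.554, 0.932, 0.595 and 0.213 in HFD (log2 change −1.79, SE 0.23, limma adjusted p = 0.000791). Oas1a, an oligoadenylate synthetase that senses double-stranded RNA, stood at 28.9, 28.0 and 18.4 FPKM against 5.24, 4.81, 5.97 and 6.45 (log2 change −1.96, SE 0.29, limma adjusted p = 0.00149). Its neighbour Oas1g stood at 15.8, 14.3 and 8.95 against 2.46, 3.35, 2.07 and 2.16. Oas1a and Oas1g are near-identical copies, so counting may have divided their reads unevenly.

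The ADP-ribosylation gene Parp9 stood at 43.4, 39.9 and 36.1 FPKM in ND and 14.97, 19.4, 17.7 and 18.7 in HFD. Its relative Parp14 stood at 18.8, 17.5 and 14.2 FPKM and 4.76, 7.56, 6.25 and 6.05. Both fell without overlap between the groups (−1.13 and −1.32 as log2 changes). Isg15, a ubiquitin-like modifier, stood at 70.4, 63.0 and 53.6 FPKM in ND and 36.7, 27.9, 19.4 and 17.3 in HFD and did not pass (log2 change −1.32, SE 0.57, limma adjusted p = 0.113) although its groups did not overlap. The interferon signalling factor Irf9 (−0.18) and Oasl1 (−0.38) did not pass.

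GAAA, 2 bases of any kind and GAAA again on either strand, which hold the core of the interferon-stimulated response element, were found within 250 bases before the start in 17 of 26 interferon response genes with a promoter (65.4%), against 3.34% of the 8206 tested genes. The stretches with matches are shown for the 4 matching members with the smallest p-values, with the matches in capitals and overlapping matches run together. On the other strand the match reads TTTC, 2 bases and TTTC. They lie, in order, at chr5:120907526-120907575 and chr5:120887614-120887661 on the minus strand, chr12:26456533-26456602 on the minus strand and chr19:34583343-34583446 on the plus strand of GRCm38.p6 (RefSeq).
Oas1a: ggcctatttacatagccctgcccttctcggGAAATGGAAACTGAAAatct
Oas1g: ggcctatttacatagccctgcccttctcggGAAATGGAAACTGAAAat
Rsad2: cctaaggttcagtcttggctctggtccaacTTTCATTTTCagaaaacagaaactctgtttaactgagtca
Ifit3: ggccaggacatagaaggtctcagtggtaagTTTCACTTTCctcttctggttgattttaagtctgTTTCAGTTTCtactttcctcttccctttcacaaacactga
Rsad2, the antiviral enzyme viperin, fell from 3.94, 2.68 and 1.61 to 0.581, 0.391, 0.343 and 0.560 FPKM (−1.31 as log2 change). Ifit3, which binds viral RNA complexes, fell from 6.80, 7.22 and 6.01 to 2.10, 2.11, 2.05 and 1.66 (−1.36), the second call ending without ND 2 and HFD 3 together. Interferon response genes are known in part by this element, so its share among them is a description only.

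Antigen presentation by class I molecules was less divided: 4 of 13 tested genes fell and 0 rose (median −0.36), with falls numbering 1 without ND 1, 0 without ND 2, 2 without ND 3, 2 without HFD 1, 2 without HFD 3, 2 without HFD 4 and 0 without ND 2 and HFD 3 together, and 1 under median-ratio scaling. Without ND 3 the rises numbered 1. H2-K1, at 636, 696 and 713 FPKM in ND and 658, 745, 655 and 620.1 in HFD, and the light chain B2m (−0.10) did not pass. The peptide transporter Tap1 fell from 27.1, 27.8 and 24.2 to 8.59, 19.2, 14.1 and 11.2 FPKM (log2 change −0.99, SE 0.23, limma adjusted p = 0.0130), a call that ended without ND 1 or without ND 2. Class II genes followed single libraries in HFD: H2-Aa stood at 618, 667 and 673 FPKM in ND and at 264, 407, 163 and 31.9 in HFD. H2-Ab1 stood at 473, 541 and 546 FPKM and 158, 328, 138 and 34.3, HFD 4 being lowest and HFD 2 highest of the HFD libraries in both. Neither passed (limma adjusted p = 0.114 and limma adjusted p = 0.0637). Of 11 class II genes 2 fell (18.2%, against 15.4% of all genes, median −1.10), H2-DMb1 (−2.41) and the lysosomal protease Ctss. Ctss went from 166, 156 and 143 to 69.1, 107, 79.3 and 65.3 FPKM (log2 change −0.97, SE 0.19, limma adjusted p = 0.00538). The class II falls numbered 1 without ND 1, ND 2, ND 3, HFD 1, HFD 3 or HFD 4, 4 without HFD 2 and 0 without ND 2 and HFD 3 together, and without HFD 4 the rises numbered 2. The call of H2-DMb1 ended without each single library but HFD 2, and that of Ctss without ND 2 and HFD 3 together. Histocompatibility genes are closely related in sequence, and reads may be shared among them. Of 13 chemokine and cytokine genes 1 rose and 2 fell, against 5.53% of all genes that rose and 15.4% that fell. The falls were those of Cxcl10 (−1.08) and Ccl28 (−1.26). They numbered 0 without ND 1, ND 2, ND 3, HFD 1 or HFD 3 and 1 without HFD 4. Without ND 2 and HFD 3 together they numbered 0. The cytokine that rose, Il15, which sustains intraepithelial lymphocytes, went from 6.18, 6.19 and 6.398 to 20.1, 14.1, 14.4 and 14.9 FPKM (log2 change 1.20, SE 0.14, limma adjusted p = 0.000695), with no overlap.

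Antimicrobial and microbiota-responsive genes of the epithelium fell in 13 of 23 tested cases and rose in 3 (median −1.39), with 6 falls without ND 2 and HFD 3 together. Duox2, an oxidase that makes hydrogen peroxide at the cell surface, stood at 56.4, 50.3 and 32.3 FPKM in ND and 0.108, 2.72, 1.021 and 0.252 in HFD (log2 change −4.68, SE 0.55, limma adjusted p = 0.000692). Its maturation factor Duoxa2 stood at 85.4, 72.3 and 47.4 FPKM against 0.239, 4.802, 1.46 and 0.531. The nitric oxide synthase Nos2 stood at 27.6, 33.7 and 45.5 FPKM against 0.0292, 1.95, 0.631 and 0.0562. All 3 ordered the HFD libraries in the same way, HFD 2 highest and HFD 1 lowest. Reg3b, a bactericidal lectin and 1 of the most abundant ND transcripts, stood at 18096, 19286 and 19847 FPKM in ND and 147, 6439.7, 2269.9 and 185 in HFD (log2 change −4.58, SE 1.20, limma adjusted p = 0.0212). Its relative Reg3g stood at 8633, 9034 and 9158 FPKM and 56.1, 2664, 905 and 74.8.

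The HFD libraries of Reg3b and Reg3g were widely spread, with HFD 1 and HFD 4 lowest, and both calls ended without each single ND library and without ND 2 and HFD 3 together. Another lectin of that family, Reg3a, rose from 154, 182 and 219 to 457, 445, 599.8 and 706 FPKM (log2 change 1.56, SE 0.20, limma adjusted p = 0.000893). The cornified envelope protein Sprr1a rose from 0.575, 0.725 and 0.954 to 13.2, 5.32, 6.61 and 6.66 (log2 change 2.29, SE 0.36, limma adjusted p = 0.00202). Saa3 (−0.12) and the ribonuclease Ang4 (−1.39) did not pass. Lypd8, which keeps bacteria off the epithelium, did not pass either (−1.149). Its HFD values of 90.7, 630.1, 554 and 519 FPKM lay below the ND values of 804, 801 and 783.

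Digestion and uptake of peptides and amino acids fell in 17 of 29 tested genes and rose in 1 (median −0.70), with falls numbering 11 without ND 2 and 8 without ND 2 and HFD 3 together. Slc7a9, which takes up cystine and basic amino acids, stood at 148, 152 and 136 FPKM in ND and 47.1, 67.1, 69.4 and 72.0 in HFD (log2 change −1.19, SE 0.15, limma adjusted p = 0.000766). The glutamate transporter Slc1a1 stood at 73.4, 52.7 and 30.02 FPKM against 1.76, 9.14, 7.46 and 6.09. The neutral amino acid transporter Slc6a19 stood at 320.0, 302 and 306 against 122, 160.1, 182 and 177. Naaladl1, a brush-border peptidase, stood at 904, 860.3 and 641 FPKM in ND and 80.3, 248, 169.7 and 135 in HFD (log2 change −2.43, SE 0.34, limma adjusted p = 0.00113), HFD 1 being the lowest. Slc6a20a (0.11), Slc7a7 (−0.24) and Slc7a8 (0.87) did not pass. The 1 member that rose was Slc6a20b (1.146), a proline transporter of close sequence to Slc6a20a, a call that ended without ND 2 and HFD 3 together. The rises numbered 4 without HFD 1 and 0 without ND 2 and HFD 3 together, and 4 under median-ratio scaling.

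In sugar handling 4 of 19 tested genes were higher and 2 lower (median 0.52). The rises numbered 1 without ND 1, 2 without ND 2, 7 without ND 3 and 1 without ND 2 and HFD 3 together, and 9 under median-ratio scaling. The falls numbered 0 without ND 1, ND 2 or ND 3, 1 without HFD 2, HFD 3 or HFD 4 and 0 without ND 2 and HFD 3 together, and 1 under median-ratio scaling. Pck1, the entry enzyme of gluconeogenesis, rose from 25.8, 32.8 and 42.1 to 106, 86.1, 159 and 209 FPKM (log2 change 1.97, SE 0.45, limma adjusted p = 0.0112), a call that ended without ND 1. The sucrase-isomaltase gene Sis stood at 701, 637 and 623 FPKM in ND and 235, 554, 615 and 609 in HFD and did not pass. The glucose transporter Slc5a1 (−0.68) and the trehalase Treh (0.88) did not pass either. Pck1 was also not called without ND 2 and HFD 3 together.

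Purine and nucleoside handling held 7 rises and 3 falls of 18 tested genes (median 0.34), the falls being those of Pnp (−0.52), Upp1 (−1.22) and Hprt (−0.36). The falls numbered 1 without ND 1, 0 without ND 2 and 0 without ND 2 and HFD 3 together. The call of Pnp ended without ND 2 or ND 3, that of Upp1 without ND 1, ND 2 or HFD 1, and that of Hprt without ND 1 or ND 2. Enpp3, an ectoenzyme that cleaves extracellular nucleotides, stood at 1.80, 8.68 and 20.1 FPKM in ND and 145, 66.5, 203 and 265 in HFD (log2 change 4.19, SE 0.66, limma adjusted p = 0.00193). Nt5e, which turns AMP into adenosine at the cell surface, stood at 3.61, 5.54 and 8.04 FPKM against 59.7, 30.5, 69.1 and 88.5 (log2 change 3.18, SE 0.38, limma adjusted p = 0.000695). Ada, which deaminates adenosine, stood at 8.04, 27.5 and 60.1 FPKM against 484, 120.0, 328 and 454 (log2 change 3.61, SE 0.63, limma adjusted p = 0.00326). In these 3 genes ND 1 was lowest and HFD 2 was the lowest HFD library, and the groups did not overlap. Alpi, intestinal alkaline phosphatase, rose from 239, 284 and 345 to 603, 480.1, 759 and 898 FPKM. Cda, cytidine deaminase, rose from 60.5, 84.9 and 115 to 197, 160.0, 187 and 208. The xanthine dehydrogenase Xdh (−0.05) and the ectonucleotidases Entpd5 (0.14) and Entpd8 (0.40) did not pass. Without ND 2 and HFD 3 together 5 rises were called, and the falls numbered 0 under median-ratio scaling.

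Vitamin uptake and retinoid handling changed in both directions, with 7 rises and 4 falls of 20 tested genes (median 0.25), of which 3 and 2 were called without ND 2 and HFD 3 together. The falls numbered 2 without ND 2 alone. Besides Slc46a1 and Rbp2, the retinol dehydrogenase gene Rdh7 rose, from 31.9, 49.3 and 77.3 to 183, 168, 217 and 261 FPKM (log2 change 2.02, SE 0.26, limma adjusted p = 0.000893). Besides Slc52a3, Slc5a6, the transporter of biotin and pantothenate, fell, from 17.1, 15.9 and 13.7 to 2.24, 2.96, 4.804 and 5.20 FPKM (log2 change −1.83, SE 0.30, limma adjusted p = 0.00235). The vitamin B12 receptor Cubn (−0.23), the folate carrier Slc19a1 (0.19) and the riboflavin transporter Slc52a2 (0.01) did not pass, their groups overlapping.

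Genes of iron, calcium, zinc and phosphate transport fell in 7 of 17 tested cases and rose in 3 (median −0.39), with falls numbering 4 without ND 1, 4 without ND 2 and 2 without ND 2 and HFD 3 together. The rises numbered 1 without ND 1 or ND 2 and 1 without ND 2 and HFD 3 together. Slc34a2, a sodium-phosphate cotransporter known for the ileum in mice, fell from 93.9, 90.3 and 78.4 to 28.7, 26.8, 15.7 and 10.3 FPKM (log2 change −2.15, SE 0.31, limma adjusted p = 0.00134). The zinc exporter Slc30a1 fell from 12.03, 10.5 and 6.94 to 1.83, 3.30, 4.17 and 4.19 FPKM. Heph, the ferroxidase that works with the iron exporter, fell from 77.0, 69.8 and 70.7 to 32.8, 43.7, 47.9 and 43.6. S100g, the calcium carrier calbindin-D9k, rose from 5.08, 3.07 and 1.96 to 15.5, 9.01, 16.7 and 22.2 FPKM (log2 change 1.95, SE 0.33, limma adjusted p = 0.00261). The vitamin D receptor Vdr (−0.15) and the transferrin receptor Tfrc (−0.39) did not pass. The call of Heph ended without ND 2 and HFD 3 together.

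Xenobiotic oxidation, conjugation and efflux rose in 15 of 49 tested genes and fell in 3 (median 0.35), with 8 rises without ND 2 and HFD 3 together. Aadac, an esterase of the endoplasmic reticulum, stood at 9.56, 25.3 and 49.1 FPKM in ND and 220.3, 218, 297 and 353 in HFD (log2 change 3.47, SE 0.47, limma adjusted p = 0.000952). The glutathione transferase Gsta1 stood at 21.9, 27.1 and 31.5 FPKM against 151, 109, 225 and 306 (log2 change 2.74, SE 0.34, limma adjusted p = 0.000766), with reads possibly shared with its close relatives. The alcohol dehydrogenase Adh4 stood at 0.571, 0.927 and 1.01 against 12.4, 6.79, 26.2 and 34.4. In contrast Cyp2c55 stood at 72.8, 73.6 and 85.6 FPKM in ND and 3.11, 4.63, 8.67 and 9.90 in HFD. The cytochromes Cyp3a11 (−0.41), Cyp3a13 (0.35) and Cyp3a25 (0.60) did not pass. Cyp3a11 stood at 124, 229 and 433 FPKM in ND and 73.0, 77.0, 339.6 and 471 in HFD, with HFD 1 and HFD 2 below the other HFD libraries.

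Of 19 tested antioxidant and NRF2 target genes 4 rose and 3 fell (median −0.06), against 5.53% of all genes that rose and 15.4% that fell. The rises numbered 2 without ND 1 or ND 2 and 1 without ND 2 and HFD 3 together. Gpx2, the epithelial glutathione peroxidase, fell from 938, 903 and 706 to 13.2, 66.7, 89.6 and 96.0 FPKM (log2 change −3.97, SE 0.56, limma adjusted p = 0.00122), and HFD 1 held far less than the other HFD libraries. Gsr, which regenerates glutathione, fell from 139.9, 133 and 111 to 10.3, 31.6, 27.6 and 26.4 FPKM (log2 change −2.47, SE 0.32, limma adjusted p = 0.000833). Ugdh, which supplies glucuronic acid for conjugation, rose from 107, 114 and 119 to 203, 159, 233 and 279 FPKM. The sulfiredoxin Srxn1 fell from 107, 117 and 117 to 59.6, 72.1, 74.2 and 79.3 FPKM. The calls of Ugdh and Srxn1 ended without ND 2 and HFD 3 together. The classic NRF2 targets Nqo1 (0.03) and Gclc (0.21) did not pass.

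Endoplasmic reticulum stress and amino acid response genes fell in 14 of 31 tested cases and rose in 0 (median −0.59), with falls numbering 6 without ND 1, 4 without ND 2 and 3 without ND 2 and HFD 3 together. Manf, a secreted factor of the unfolded protein response, stood at 169, 172 and 176 FPKM in ND and 64.9, 99.0, 97.6 and 96.4 in HFD (log2 change −0.96, SE 0.15, limma adjusted p = 0.00173). The chaperone gene Dnajb9 fell from 105, 86.6 and 98.7 to 49.5, 45.8, 49.2 and 37.8 FPKM. The chaperone gene Hspa5 fell from 225, 239 and 228 to 48.7, 106, 118 and 129.9 FPKM, and HFD 1 was by far the lowest library of Hspa5. Herpud1 (0.25), Pdia3 (−0.48) and Pdia4 (−0.67) did not pass. The call of Hspa5 ended without ND 2.

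Clock output differed for a few genes: 4 of 16 tested rose and 1 fell (median 0.34), with rises numbering 2 without ND 1, 2 without ND 2, 2 without ND 3 and 1 without ND 2 and HFD 3 together. The falls numbered 0 without ND 1, ND 2, ND 3, HFD 2, HFD 3 or HFD 4, 2 without HFD 1 and 0 without ND 2 and HFD 3 together. Dbp, a transcription factor driven directly by the clock, stood at 17.2, 15.8 and 13.2 FPKM in ND and 30.2, 46.9, 49.6 and 52.3 in HFD (log2 change 1.46, SE 0.20, limma adjusted p = 0.00101). Under median-ratio scaling 7 clock genes rose. Per1 rose from 1.06, 0.913 and 1.05 to 1.65, 1.88, 2.30 and 2.45 FPKM, a call that ended without ND 1 or without ND 2, while the activators Clock (−0.22) and Npas2 (−0.40) did not pass. The labels do not state the time of day of sampling. Of 11 immediate early genes 3 rose, Fosb (1.31), Btg2 (0.76) and Jun, which went from 13.4, 15.1 and 18.7 to 37.2, 23.6, 28.9 and 32.1 FPKM (log2 change 0.90, SE 0.17, limma adjusted p = 0.00409), while Fos (1.08), Junb (−0.06) and Egr1 (0.10) did not pass. The rises numbered 1 without ND 3 and 0 without ND 2 and HFD 3 together. The call of Btg2 ended without ND 3, and that of Fosb without each single ND library and without HFD 3 or HFD 4. None of 13 tested heat shock genes passed limma's adjusted threshold (2 had an unadjusted p under 0.05).

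Nuclear-encoded subunits of oxidative phosphorylation rose in 15 of 77 tested cases and fell in 0 (median 0.27), but the count turned on the scale and on single libraries. It was 30 with median-ratio scaling and 5 with equal summed FPKM, and 0 without ND 1, 0 without ND 2, 7 without HFD 2, 7 without HFD 3 and 0 without ND 2 and HFD 3 together. Ndufc1, a complex I subunit, stood at 68.7, 77.9 and 98.3 FPKM in ND and 139, 127, 121 and 126 in HFD (log2 change 0.66, SE 0.15, limma adjusted p = 0.0131). This call ended without ND 1 or without ND 2. The ATP synthase subunit Atp5b stood at 727, 831 and 911 FPKM in ND and 417, 588, 803 and 976 in HFD and did not pass. Of the 13 mitochondrially encoded genes 1 rose (7.69%, against 5.53% of all genes), ND4L. It stood at 74.2, 71.1 and 54.5 FPKM in ND and 169.6, 150.1, 102 and 152 in HFD (log2 change 1.08, SE 0.30, limma adjusted p = 0.0251). The rises numbered 0 without ND 1, ND 2, ND 3 or HFD 1 and 2 without HFD 4. Without ND 2 and HFD 3 together they numbered 0. The most abundant, COX1, stood at 38326, 37148 and 38308 FPKM in ND and 120231, 56021, 46165 and 38651 in HFD and did not pass (log2 change 0.63, SE 0.39, limma adjusted p = 0.250), HFD 1 holding far more than any other library.

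Of 34 tested cell cycle and DNA replication genes 3 fell (8.82%, against 15.4% of all genes), Mcm4 (−0.98), Uhrf1 (−1.22) and Hells (−0.89) (median −0.58). In 24 of the 34 every HFD library lay below every ND library, against 33.8% of all genes. Their mean log2(FPKM + 1) was 3.09, 3.07 and 2.88 in ND and 1.66, 2.72, 2.67 and 2.71 in HFD, with HFD 1 standing apart. The proliferation marker Mki67 stood at 11.004, 9.30 and 6.004 FPKM in ND and 1.37, 7.66, 6.93 and 6.73 in HFD. The topoisomerase Top2a stood at 18.7, 16.4 and 13.5 FPKM and 2.78, 10.7, 9.48 and 10.2. Neither passed. The falls numbered 0 without ND 1, ND 2, ND 3, HFD 1 or HFD 3 and 0 without ND 2 and HFD 3 together. Of 16 crypt stem cell and Wnt target genes 0 passed limma's adjusted threshold (2 had an unadjusted p under 0.05), Lgr5 (−0.28) and Olfm4 (−0.48) among them. Of 78 ribosomal protein genes 5 fell (6.41%, against 15.4% of all genes) and 0 rose (median −0.13). The falls numbered 1 without ND 1, 1 without ND 2, 2 without ND 3 and 2 without HFD 3. They numbered 0 without ND 2 and HFD 3 together and 10 under quantile normalization.

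Epithelial junctions and the brush border held more falls than rises, but most of their genes did not pass. Over all genes 15.4% fell and 5.53% rose. Of 21 tested junction genes 8 fell, and Cldn4 was the 1 that rose (median −0.22, against −0.21 over all genes). The falls numbered 2 without ND 1, 1 without ND 2, 5 without ND 3 and 0 without ND 2 and HFD 3 together. Cldn7, a basolateral claudin, fell from 582, 624 and 634 to 298, 382, 398 and 422 FPKM (log2 change −0.72, SE 0.14, limma adjusted p = 0.00542), a call that ended without ND 2 and HFD 3 together, whereas Cldn3 (0.10) and Cldn15 (0.13) did not pass. Under median-ratio scaling the junction falls numbered 4, with a median of −0.01 against −0.02 over all genes. Of 19 brush-border genes 7 fell and 2 rose (median −0.38), with falls numbering 3 without ND 1, 1 without ND 2, 4 without HFD 3 and 1 without ND 2 and HFD 3 together, and 2 under median-ratio scaling. The rises numbered 0 without ND 1 or ND 2, 1 without ND 3, HFD 1, HFD 3 or HFD 4 and 0 without ND 2 and HFD 3 together. Tmigd1, an adhesion protein of the brush border, fell from 826, 581 and 311 to 16.2, 34.0, 15.7 and 8.91 FPKM (log2 change −4.90, SE 0.59, limma adjusted p = 0.000727), with ND 3 lowest in ND and HFD 4 lowest of all. Villin, Vil1, stood at 830.0, 915 and 938 FPKM in ND and 738, 883, 891 and 927 in HFD and did not pass (log2 change −0.06, SE 0.13, limma adjusted p = 0.742).

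Ion and water transport genes rose in 4 of 20 tested cases and fell in 6 (median −0.51), with falls numbering 3 without ND 1, 2 without ND 2 and 1 without ND 2 and HFD 3 together. The rises numbered 1 without ND 2 and HFD 3 together. Car2, a carbonic anhydrase, rose from 1.12, 1.79 and 4.23 to 26.002, 18.8, 20.7 and 21.2 FPKM (log2 change 2.84, SE 0.35, limma adjusted p = 0.000766). The paired chloride channel regulators Clca4a and Clca4b went opposite ways. Clca4a rose from 143, 169 and 202 to 368, 433, 594 and 679 FPKM (log2 change 1.57). Clca4b fell from 1395, 1273 and 1232 to 409.7, 649, 610.3 and 579.8 FPKM (log2 change −1.23), with reads possibly shared between these close relatives. Uroguanylin, Guca2b, a peptide that drives chloride secretion, rose from 981, 1215 and 1389 to 2687, 2163, 2322 and 2439 FPKM (log2 change 1.017, SE 0.20, limma adjusted p = 0.00515). Its receptor Gucy2c (−0.64) and the channel Cftr (−0.16) did not pass. The calls of Clca4a and Guca2b ended without ND 2 and HFD 3 together.

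The series title names gastric inhibitory polypeptide, the incretin hormone of the proximal gut encoded by Gip. Its gene stood at 18.9, 30.8 and 48.3 FPKM in ND and 81.8, 109, 104 and 108 in HFD. Its mean was 32.7 ± 14.8 (SD, n = 3) against 101 ± 12.8 (SD, n = 4), or 3.08-fold (log2 change 1.68, SE 0.31, limma adjusted p = 0.00426). ND 3 was the highest ND library and HFD 1 the lowest HFD library, and the call ended without ND 2 and HFD 3 together. Dpp4, the peptidase that inactivates incretins, stood at 182, 188 and 194 FPKM in ND and 44.2, 87.6, 84.3 and 84.5 in HFD, all 4 HFD libraries lying below all 3 ND libraries (log2 change −1.36, SE 0.21, limma adjusted p = 0.00193). Gipr, the receptor, averaged below 1 FPKM and was not tested.

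Enteroendocrine markers, Gip among them, divided, 3 rising and 4 falling of 19 tested (median −0.49). The falls numbered 1 without ND 1, 1 without ND 2, 1 without HFD 1 and 0 without ND 2 and HFD 3 together. The rises numbered 1 without ND 2 and HFD 3 together. Ghrl, which encodes ghrelin, rose from 3.14, 2.01 and 3.50 to 8.003, 10.5, 10.6 and 12.5 FPKM (log2 change 1.56, SE 0.23, limma adjusted p = 0.00148). Pyy, the distal satiety hormone, fell from 44.7, 34.4 and 22.3 to 3.92, 8.66, 4.53 and 1.82 (log2 change −2.68, SE 0.51, limma adjusted p = 0.00455), a call ending without ND 2 and HFD 3 together. Cck (0.35), Gcg (−1.26) and Sct (−0.24) did not pass.

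Markers of several other cell types differed widely among the HFD libraries. B cell markers had a summed level of 4.68, 3.47 and 1.89 FPKM in ND and of 269, 182, 64.2 and 1.91 in HFD, so that HFD 4 lay within the ND range and the other 3 HFD libraries far above it. Cd79a, part of the B cell receptor, stood at 1.47, 1.06 and 0.752 FPKM in ND and 99.3, 59.3, 22.8 and 1.31 in HFD. None of the 12 tested B cell genes passed limma's adjusted threshold (median 2.01, 5 with an unadjusted p under 0.05), while 8 rose without HFD 4. Cxcl13, the chemokine of lymphoid follicles, ordered the HFD libraries alike, at 66.2, 26.3, 9.80 and 0.0913 FPKM against 1.01, 1.18 and 0.137 in ND.

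Of 15 Paneth cell genes 3 fell and 1 rose, against 15.4% of all genes that fell and 5.53% that rose. The falls numbered 0 without ND 1, ND 2, HFD 1 or HFD 4, 8 without HFD 2, 1 without HFD 3 and 0 without ND 2 and HFD 3 together, and 0 under median-ratio scaling. The call of the rise ended without each single library in turn. The defensin Defa21, whose reads may be shared with near-identical copies, stood at 44.2, 46.7 and 40.0 FPKM in ND and 3.07, 31.5, 9.36 and 0.512 in HFD, with HFD 2 far above the other HFD libraries, and its call ended without each single ND library and without HFD 1 or HFD 4. Smooth muscle genes summed to 1133, 1055 and 819 FPKM in ND and 328, 1135, 792 and 657 in HFD, HFD 1 holding the least, with 0 of 17 past limma's adjusted threshold (0 at an unadjusted p under 0.05). The goblet cell product Tff3 stood at 407, 535 and 732 FPKM in ND and 1193, 1068, 1069 and 1066 in HFD and did not pass (log2 change 1.017, SE 0.53, limma adjusted p = 0.179). Haemoglobin genes rose in 3 of 4 tested (75%, against 5.53% of all genes, median 1.35). Hba-a1 rose from 4.26, 3.95 and 6.69 to 17.9, 29.7, 22.1 and 10.4 FPKM (log2 change 1.76, SE 0.46, limma adjusted p = 0.0205). These calls may share reads between copies, and they numbered 0 without ND 1, 0 without ND 2 and 0 without ND 2 and HFD 3 together. Of 10 adipocyte markers 2 rose (20%, against 5.53% of all genes), Pparg (1.19) and Cidec. Cidec, a lipid droplet protein found in enterocytes too, went from 12.2, 22.02 and 32.2 to 66.4, 51.0, 70.7 and 84.8 FPKM (log2 change 1.66, SE 0.26, limma adjusted p = 0.00199). Adipoq, which defines fat cells, stood at 2.05, 1.73 and 1.16 FPKM and 1.38, 8.22, 6.99 and 4.53 and did not pass. Of 14 enterocyte markers 2 rose and 3 fell, against 5.53% of all genes that rose and 15.4% that fell. Their median log2 change was −0.21, against −0.21 over all genes. The rises numbered 1 without ND 1, ND 2, HFD 2, HFD 3 or HFD 4 and 1 without ND 2 and HFD 3 together. The falls numbered 1 without ND 1 or ND 2 and 0 without ND 2 and HFD 3 together. Of 9 tuft cell markers 1 rose and 3 fell (median −0.37), against 5.53% and 15.4% of all genes. The tuft cell falls numbered 1 without ND 1, HFD 1 or HFD 2, 0 without ND 2 and 0 without ND 2 and HFD 3 together. Of 16 goblet cell markers 1 rose (6.25%, against 5.53% of all genes) and 0 fell. The rises numbered 0 without ND 1, ND 2, HFD 1, HFD 2, HFD 3 or HFD 4. They also numbered 0 without ND 2 and HFD 3 together. In 7 of the 16 goblet cell markers every HFD library lay above every ND library (median 0.36), against 9.4% of all genes. Only 2 of the 16 had an unadjusted p under 0.05 by limma. Goblet cell markers summed to 1291, 1733 and 2314 FPKM in ND and 4743, 4440, 4222 and 4311 in HFD. Of 5 colon markers 0 rose and 3 fell (60%, against 15.4% of all genes), the falls numbering 1 without ND 2 and HFD 3 together. Plasma cell markers summed to 74.6, 75.9 and 90.2 FPKM in ND and 101, 187, 168 and 143 in HFD. In 4 of the 5 tested every HFD library lay above every ND library (median 1.47), against 9.4% of all genes. None of these 4 passed limma's adjusted threshold with every library (5 of the 5 tested had an unadjusted p under 0.05), and without HFD 4 the rises numbered 3. The plasma cell marker that fell was Sdc1 (−1.36), a syndecan that epithelial cells make too, a call that ended without ND 2 and HFD 3 together. Of 3 pancreatic acinar markers 2 rose (66.7%, against 5.53% of all genes) and 0 fell. The acinar rises numbered 0 without ND 2 and HFD 3 together. Markers of T cells (10 tested, 1 at an unadjusted p under 0.05), macrophages and dendritic cells (12, 1), fibroblasts (16, 0), endothelium (8, 0), enteric neurons and glia (9, 2) and mast cells (1, 0) gave 0 calls by limma. The part of these cell types in the changes above was not tested.

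**Figure D5:**
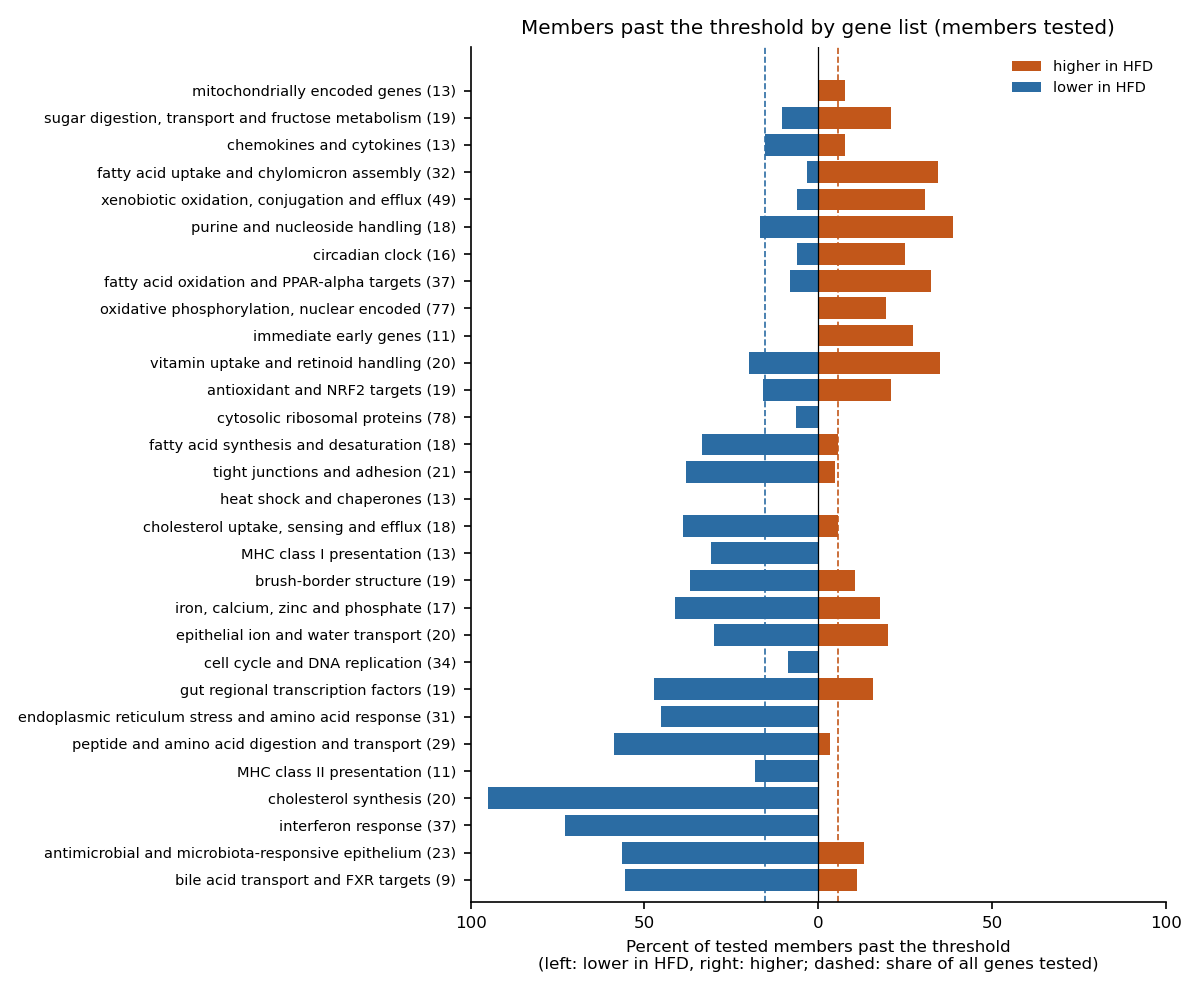
Percent of the tested members of 30 pathway lists past limma's threshold, falls to the left and rises to the right, lists ordered by their median log2 change, with the number tested in parentheses and dashed lines at the shares over all genes (15.4% and 5.53%). Cholesterol synthesis (19 of 20) and interferon response (27 of 37) hold the largest shares of falls, and purine and nucleoside handling (7 of 18) the largest share of rises.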

How the data were processed

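Per the labels' protocols, TRIzol was used for RNA and a VAHTS Universal V6 kit for the libraries. Per the submitters' processing notes, fastp, HISAT2, HTSeq, R 3.2.0 and the mouse build mm10 were used. Gene annotation, strand setting and FPKM software are not stated there. The authors deposited FPKM per gene for all libraries, which is not a count, so no count model was used. From these values log2(FPKM + 1) was computed and fitted with limma 3.58.1 in R 4.3.3, with an intensity trend, over 11 libraries in 3 groups, so that the groups share an estimate of the spread. HFD minus ND was tested on both sides over 10272 genes averaging at least 1 FPKM in the 7 libraries, with Benjamini-Hochberg adjustment and a threshold of 0.05. A fold change on the log2(FPKM + 1) scale understates the change of low genes.

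Depth was recovered from 694 single-exon genes, whose low values step by whole fragments: 75.9% to 79.5% of values of up to 10 fragments lay within 0.05 of a whole number. The sum behind the check of ND 2 and HFD 3 used genes of at least 3 FPKM and weights of 0 or more. The fit was tested on simulated data. Promoters came from RefSeq (GRCm38.p6, a promoter for 79.9% of tested genes) and gene coordinates from GENCODE vM21 on GRCm38.

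The gene lists and members were chosen with earlier results of these data known. Some lists share genes, so their counts are not independent. Genes were named by a rule: the 15 named genes of smallest limma p in each direction without overlap between the groups, the 10 of highest mean in each group, up to 5 called and 3 uncalled members of each list, the genes of the incretin hormone, genes whose call an alternative ended, and promoters with a motif. Some genes of this rule are not reported here. Nr0b2, Insig1, Slc6a20b, Pnp, Upp1, Hprt and Sdc1 were named after their values were seen. Alternatives were other pseudocounts, filters, scalings and weights, the 7 libraries alone, a position covariate, a replicate block, leaving out each library, and, chosen after seeing the data, leaving out ND 2 and HFD 3 together.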

Additional observations from a re-analysis of the deposited data

Results flagged for a closer look

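Among 266 tests of a single library against its group of 4 HFD libraries, for genes and gene lists named in the text, 18 found a library set apart by a gap above Dixon's critical value for groups of 4. Chance sets apart about 1 in 20 groups. In 16 of the 18 the library was HFD 1. It was low for Dpp4 (44.2 FPKM), Ext1 (2.83 FPKM), Manf (64.9 FPKM), Mki67 (1.37 FPKM), Pdia4 (10.4 FPKM), Sis (235 FPKM) and Top2a (2.78 FPKM). It was high for Il15 (20.1 FPKM), Pnp (70.9 FPKM), Sprr1a (13.2 FPKM) and Tff3 (1193 FPKM). In mean log2(FPKM + 1) it was low for the lists of fatty acid synthesis and desaturation (2.34), peptide and amino acid digestion and transport (5.48), endoplasmic reticulum stress and amino acid response (3.52), heat shock and chaperones (3.81) and cell cycle and DNA replication (1.66). HFD 2 was high for Slc10a2 (0.551 FPKM), and HFD 4 was low for Ifit3 (1.66 FPKM). The mitochondrially encoded share of 40.4% in HFD 1 stood beside these values, and its part in them was not tested.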

How the results depend on the processing

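With limma on log2(FPKM + 1), 568 genes were higher and 1586 lower in HFD. The counts were 1131 and 986 with median-ratio scaling and 1150 and 1222 with quantile normalization. Array weights, estimated gene by gene, gave 2025 and 5178, with ND 2 and HFD 3 taking by far the largest weights. Leaving out ND 2 and HFD 3 together gave 148 and 263. Leaving out 1 library at a time gave 271 to 575 higher and 577 to 1400 lower. Other pseudocounts, filters, no trend, the 7 libraries alone and both rescalings to equal sums kept both counts within 1.5 times. With the position score as covariate 0 and 0 genes passed limma's adjusted threshold (748 at an unadjusted p under 0.05). The score itself separates the groups. With it the log2 change took the other sign for 253 of the called genes. The median took the other sign for 18 of 51 gene lists, among them proximal small intestine (2.81 to −0.40) and fatty acid uptake and chylomicron assembly (0.40 to −0.29). The score is made from the distal and proximal lists, so the turn of the proximal list follows in part from how the score is built. Among the genes named in the text the sign turned for Ada (−0.40), Agpat3 (−0.19), Defa21 (0.52), Elovl5 (0.08), Fabp1 (−0.67), H2-DMb1 (0.28), Hmgcs1 (0.59), Maf (0.29), Mylip (0.43), Pyy (0.10), Slc10a2 (0.31) and Stard4 (0.07). Of these, Ada and Fabp1 (proximal) and Pyy and Slc10a2 (distal) were adjusted for a score that they help make. The cause of these differences was not tested. Same-numbered libraries correlated at −0.1, 0.0422 and −0.0524 in their deviations from the group means. The best correlations of the same ND libraries with an HFD library of another number were 0.36, 0.0287 and 0.213. So few values cannot settle whether the numbers pair the libraries. With the replicate block 652 genes were higher and 1724 lower. Of 141 calls named in the text, 91 were made without ND 2 and HFD 3, 114 without each single library and 131 under all 4 scalings. Depth differed 1.17-fold between libraries, and genes under 1 FPKM were not tested.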
